A study of Marchantia polymorpha with 78 samples.

Results

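Transcript levels in thalli of the liverwort Marchantia polymorpha, male wild-type line Tak-1, were compared between 3 libraries taken after 180 min of blue light and 3 libraries kept in darkness for the same 180 min. These are 6 of the 78 libraries of a light-quality time course with 26 groups of 3 biological replicates. Of the 19355 genes in the table, the 13054 that reached at least 1 TPM (a transcript level scaled to gene length and to a fixed sum per library) in 3 or more of all libraries were tested. In both groups, gemmae had grown for 8 days on half-strength Gamborg medium with MES, 1% sucrose and 1% agar in continuous white light at 23 °C and had then spent 24 h in darkness. Blue light had its emission maximum at 430 nm and an intensity of 30 to 40 µmol m−2 s−1, and the dark plates received no light. Other lights at 180 min are used below, each after the same growth and dark period: white light (50 to 60 µmol m−2 s−1), red light (maximum at 660 nm, 80 to 90 µmol m−2 s−1) and far-red light (730 nm, 30 to 40 µmol m−2 s−1). Blue and dark groups of 30 min, 60 min, 12 h and 24 h and a group from the moment the dark period ended (time zero) are also used. Each library pooled the thalli of 3 plants. Each culture plate held 3 biological replicates, per the labels, so a plate's effect and a light's effect cannot be told apart, and p-values measure only the spread between these samples.

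Plants sense blue light with cryptochromes, flavoproteins that act in the nucleus, and with phototropins, kinases at the plasma membrane. Marchantia polymorpha carries a small set of photoreceptor genes, and its thallus is the flat haploid body of the plant. In land plants, active cryptochromes and phytochromes restrain an E3 ubiquitin ligase built from COP1 and SPA proteins, which in darkness removes transcription factors that promote light responses. Light on dark-kept plants is known to turn on flavonoid synthesis, plastid genes and cell division, and blue light is also absorbed by chlorophyll.

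The 6 libraries had between 11918 and 12054 genes at 1 TPM or more, and the number of reads behind them is unknown. The 50 genes of highest TPM held 14.3% to 14.6% of TPM in blue light and 17.0% to 17.4% in darkness. Across genes, replicates correlated with r of 0.9958 to 0.9964 (log2 scale) in blue light and 0.9949 to 0.9957 in darkness; genes are not independent replicates. Of 18 organ and sex markers, 15 were tested, of which 2 were called higher and 0 lower. The sex of the thallus was taken from the label and was not tested. MpNOP1, a ubiquitin ligase needed for air chambers of the thallus, had 67.6, 74.4 and 73.8 TPM in blue light, against 71.2, 77.9 and 80.99 TPM in darkness. The germline factor MpDUO1 stayed below 1.5 TPM in each of the 6 libraries. Of the 46 tested genes of the V (male) chromosome, 2 were called higher and 0 lower by limma, and 19 and 6 had an unadjusted p under 0.05. The numbers over all tested genes are given with the calls below.

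Transcript levels of a large part of the genes differed between blue light and darkness at 180 min. A gene was called when its adjusted p (limma on log2(TPM + 1), Benjamini-Hochberg over all tested genes) was under 0.05 and its log2 fold change was 1 or more in either direction. By this rule 2314 genes were called, which is 17.7% of those tested: 1258 were higher in blue light (9.64%) and 1056 were lower (8.09%). Of these, 219 rose and 182 fell by at least 2, and 47 rose and 41 fell by at least 3, on the log2 scale. In 2313 of the 2314 called genes the 3 blue-light values and the 3 dark values did not overlap, but this also held for 73.5% of all tested genes. Whatever the fold, 9317 of the 13054 tested genes had a limma adjusted p under 0.05. Counts of list members at an unadjusted p under 0.05 are to be read beside that number. Symbols were available for 483 of the called genes, 292 higher and 191 lower. All fold changes below are log2 fold changes of blue light over darkness on the log2(TPM + 1) scale unless another pair is named, and they understate changes of genes near 0. In RNA from whole thalli, fewer cells of a type and less RNA per cell cannot be told apart.

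**Figure D1:**
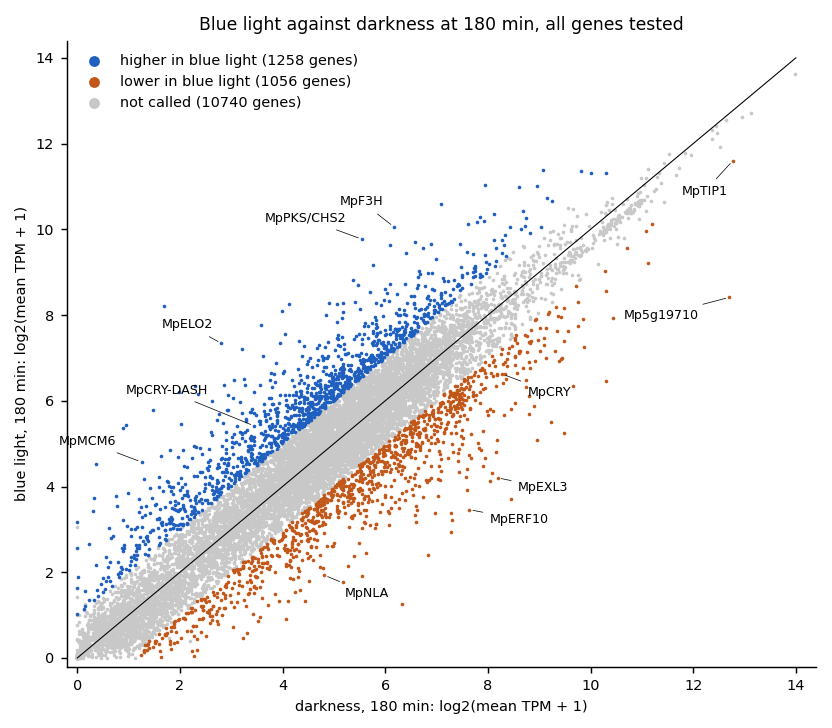
Mean level of each of the 13054 tested genes in blue light (vertical axis) and in darkness (horizontal axis) at 180 min, both as log2(mean TPM + 1), each point 1 gene and the line marking equal levels. The 1258 genes called higher lie above the line and the 1056 called lower lie below it, and MpTIP1 and Mp5g19710 stand far to the right among those called lower, as genes of very high level in darkness.

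The largest rise among genes with a symbol was that of MpELO2 (Mp3g20100), a fatty acid elongase, at 171, 152 and 161 TPM in blue light, against 6.24, 6.04 and 5.68 TPM in darkness. Next came MpPKS/CHS2 (Mp2g07060), a chalcone synthase-family polyketide synthase, at 872, 867 and 878 TPM in blue light, against 43.5, 48.6 and 44.9 TPM in darkness. The 2 groups of libraries were apart by more than 10-fold in both genes. Their fold changes were 4.54 ± 0.13 and 4.23 ± 0.064 (SE; limma adjusted p = 3.84e-39 and 3.55e-55). The other 13 of the 15 largest rises ranged from 2.81 (MpEDS5) to 3.90 (MpF3H). Between these lay MpCER1, MpUGT31 (a UDP-glycosyltransferase), the replication helicase subunit MpMCM6, MpIDS4, MpRUP, the dioxygenase MpDOXC2, the LEA-like MpLEAL5, the plastid sigma factor MpSIG5, MpPKS/CHS10, the chalcone isomerase-like MpCHIL2 and MpPKS/CHS14.

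The largest fall among genes with a symbol was that of MpERF10 (Mp7g00860), a transcription factor of the ethylene response factor class, at 9.39, 10.4 and 10.2 TPM in blue light, against 191, 196 and 208 TPM in darkness. MpEXL3 (Mp7g19240) had 16.4, 16.5 and 19.4 TPM in blue light, against 289, 273 and 312 TPM in darkness. In both genes every dark library was more than 10 times above every blue-light library. The fold changes were −4.18 ± 0.11 and −3.99 ± 0.071 (SE; limma adjusted p = 3.09e-41 and 2.74e-51). MpPTB8 fell by 3.60, the kelch-repeat F-box gene MpKFB01_20 by 3.44, the protein phosphatase MpPP2C_F3 by 3.18 and MpWRKY8 by 3.17. The remaining 9 of the 15 largest falls, from −3.14 (the O-methyltransferase MpOMT16) to −2.60 (MpCupin4), included MpPKS/CHS16, MpNLA, the class III peroxidases MpPOD169 and MpPOD23, MpLEA-like33, MpERF18 and the cytochrome P450 gene MpCYP814-like. The Arabidopsis counterpart of MpNLA is a ubiquitin ligase that removes phosphate transporters.

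**Figure D2:**
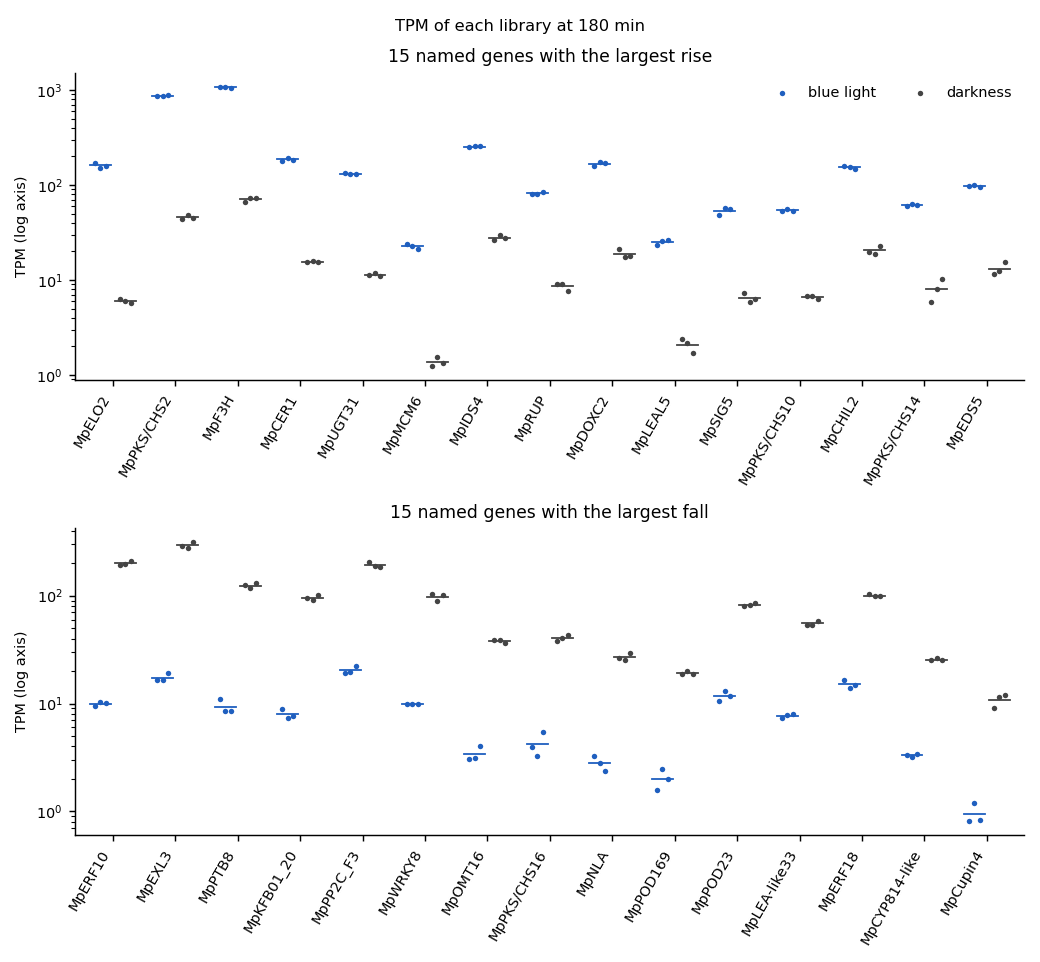
TPM in each of the 3 blue-light libraries (blue points, left of each pair) and the 3 dark libraries (grey points, right) at 180 min, on a log axis, for the 15 named genes with the largest rise (top) and the largest fall (bottom); bars are means. The 2 groups of points do not overlap in any of the 30 genes, which was a condition of their choice. MpERF10 sits near 10 TPM in blue light and near 200 TPM in darkness.

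Among the 7 photoreceptor genes, 1 rose and 1 fell past the fold threshold. MpCRY-DASH (Mp1g25600), a member of the cryptochrome and photolyase family, had 40.3, 42.1 and 42.5 TPM in blue light, against 9.57, 9.58 and 10.5 TPM in darkness. MpCRY (Mp2g17590), the cryptochrome, had 92.5, 98.2 and 102 TPM in blue light, against 294, 332 and 303 TPM in darkness. The first was about 4-fold higher in blue light (1.97 ± 0.10 SE, limma adjusted p = 1.43e-26) and the second about 3-fold lower (−1.66 ± 0.084, 5.24e-27), with no overlap between the groups in either. The dark level of MpCRY at 180 min was itself above time zero, where its mean was 198 TPM. The red and far-red receptor MpPHY had 148, 173 and 161 TPM in blue light, against 255, 272 and 292 TPM in darkness. The phototropin MpPHOT had 201, 214 and 202 TPM in blue light, against 292, 307 and 321 TPM in darkness. MpNCH1, which acts with phototropin in chloroplast accumulation, averaged 167 ± 6.90 TPM in blue light and 263 ± 2.54 TPM in darkness (SD, n = 3 each). These 3 genes were lower in every blue-light library than in every dark library, by 0.76, 0.57 and 0.66, with a limma adjusted p of at most 1.34e-07, but under the fold threshold. The UV-B receptor MpUVR8 (0.10, limma adjusted p = 0.199) and the LOV-domain F-box gene MpFKF (0.04, 0.611) did not pass the test.

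Of 19 tested regulators of light signalling, 6 were called higher and 1 lower, with a median fold change of 0.49 beside 0.02 over all tested genes. MpRUP (Mp2g18040) had 80.2, 80.4 and 84.5 TPM in blue light, against 9.14, 9.16 and 7.69 TPM in darkness. In Arabidopsis, RUP proteins return the UV-B receptor to its inactive form. The B-box factor MpBBX2 had 9.84, 11.4 and 9.95 TPM in blue light, against 1.65, 1.22 and 1.22 TPM in darkness, and MpBBX1 averaged 135 ± 2.41 TPM in blue light and 36.9 ± 1.30 TPM in darkness (SD, n = 3 each). Fold changes were 3.10 for MpRUP, 2.27 for MpBBX2, 1.84 for MpBBX1 and 1.13 for MpBBX3. MpDET1, an adaptor of the ubiquitin ligase machinery that represses light responses in Arabidopsis, rose by 1.79, to 174, 179 and 173 TPM in blue light, against 49.4, 46.5 and 53.9 TPM in darkness. MpGATA4 rose by 1.06, which is 0.998 and no longer called without replicate 2 of the groups.

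MpFHY1 (Mp2g16500), which carries phytochrome into the nucleus, was the 1 called lower, at 14.3, 14.5 and 16.2 TPM in blue light, against 58.9, 67.6 and 61.4 TPM in darkness. The 12 regulators not called included MpCOP1 (0.83), MpSPA1 (0.49) and MpBHLH6 (−0.12), listed with the synonym MpPIF, whose namesakes in Arabidopsis are bHLH factors that phytochrome removes. MpCOP1 and MpSPA1 were nonetheless higher in all 3 blue-light libraries, at 129, 124 and 129.8 TPM for MpCOP1 in blue light, against 71.3, 70.1 and 72.6 TPM in darkness. MpBBX6 was lower in blue light by 0.82, under the fold threshold.

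Of 7 tested clock genes, 2 rose and 1 fell. MpELF3, a part of the evening complex, had 153, 163 and 157 TPM in blue light, against 53.3, 59.1 and 54.5 TPM in darkness. MpGARP7, listed with the synonym MpLUX, is named for another part of that complex and had 37.99, 41.9 and 41.4 TPM in blue light, against 82.7, 90.3 and 83.8 TPM in darkness. The pseudo-response regulator MpPRR rose by 1.05, MpELF3 rose by 1.49 and MpGARP7 fell by 1.06. The fall of MpGARP7 was under the fold threshold with a pseudocount of 5 TPM. MpTOC1 was at −0.71 and MpGI at 0.09, both not called.

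Flavonoids are phenolic pigments and sunscreens built from phenylalanine, through phenylalanine ammonia-lyase (PAL), cinnamate hydroxylase (C4H), chalcone synthase (CHS) and chalcone isomerase (CHI). Of 40 tested genes of this list, 15 were called higher and 6 lower. At the head of the pathway MpPAL1 had 178, 188 and 181 TPM in blue light, against 42.8, 41.8 and 42.4 TPM in darkness. MpC4H1 averaged 418 ± 9.39 TPM in blue light and 173 ± 6.91 TPM in darkness, and MpCHI averaged 176 ± 6.66 TPM in blue light and 79.2 ± 0.457 TPM in darkness (SD, n = 3 each). MpF3H (Mp1g26540), named for the flavanone hydroxylase, had 1074, 1069 and 1059.7 TPM in blue light, against 65.8, 72.9 and 73.7 TPM in darkness. The rises were 2.08 for MpPAL1, 1.27 for MpC4H1, 4.23 for MpPKS/CHS2, 1.14 for MpCHI, 2.85 for MpCHIL2 and 3.90 for MpF3H. The coumarate ligase genes Mp4CL2 (0.52) and Mp4CL1 (−0.41), of a step between C4H and CHS, were not called. MpF3H reached 15.1 times its dark mean.

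Members of the CHS family did not all move in the same direction. Besides MpPKS/CHS2, the rises included MpPKS/CHS10 (2.86), MpPKS/CHS14 (2.82), MpPKS/CHS21 (2.76), MpPKS/CHS23 (2.12) and MpPKS/CHS15 (1.97). MpPKS/CHS15 (Mp4g14200) had 181, 189 and 190.3 TPM in blue light, against 49.6, 40.5 and 51.8 TPM in darkness. Its near neighbour MpPKS/CHS16 (Mp4g14220) had 3.98, 3.26 and 5.41 TPM in blue light, against 38.2, 40.8 and 43.5 TPM in darkness. Between them lies MpPAL4 (Mp4g14210), at 3.80, 4.36 and 4.53 TPM in blue light, against 17.1, 19.95 and 17.8 TPM in darkness. The 3 identifiers are consecutive in the numbering, and MpPKS/CHS15 rose while MpPAL4 and MpPKS/CHS16 fell by 1.88 and 3.02. The other falls of the list were MpHCT (−1.84), an acyltransferase of the phenylpropanoid route, MpPKS/CHS3 (−1.64), MpCHS-like (−1.51) and MpPAL10 (−1.33). Near-identical copies in the CHS and PAL families may share reads, and how the counting split such reads is not given in the sources used here.

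Of 46 tested genes for fatty acid elongation, cutin and wax, 5 rose and 2 fell, a share close to that of all genes. The rises nevertheless included the largest named change of the comparison. MpELO1, a second elongase, had 252, 251 and 257 TPM in blue light, against 80.2, 85.9 and 83.7 TPM in darkness, a rise of 1.60. MpCER1 (Mp3g17080), whose Arabidopsis counterpart makes the alkanes of cuticular wax, had 181, 195 and 184 TPM in blue light, against 15.5, 15.8 and 15.3 TPM in darkness, a rise of 3.50. MpCUS, named for cutin synthase, rose by 1.02 and the fatty acid hydroxylase MpCYP704-like5 by 1.41. The ABC transporter gene MpABCG11, at 0.298, 0 and 0.10 TPM in blue light, against 2.87, 4.58 and 4.63 TPM in darkness, fell by 2.14. MpCYP704K1 fell by 1.14. With a pseudocount of 5 TPM, MpCYP704-like5, MpABCG11 and MpCYP704K1, all of low level in at least 1 group, were under the fold threshold.

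Many DNA replication genes rose. Of 38 tested histone and replication genes, 18 were called higher and 3 lower, with a median fold change of 0.89. The 6 subunits of the MCM2 to MCM7 helicase, which opens DNA ahead of the replication fork, were all called. MpMCM6 (Mp4g14930) had 24.1, 23.04 and 21.1 TPM in blue light, against 1.25, 1.55 and 1.34 TPM in darkness. MpMCM2 had 29.3, 26.3 and 29.1 TPM in blue light, against 5.20, 4.88 and 4.63 TPM in darkness, and MpMCM3 had 22.03, 21.5 and 20.7 TPM in blue light, against 3.70, 2.88 and 3.15 TPM in darkness. In each of these 3 genes the blue-light libraries were all far above the dark libraries. The rises were 3.32 for MpMCM6, 2.41 for MpMCM3, 2.31 for MpMCM2, 1.96 for MpMCM4, 1.95 for MpMCM7 and 1.92 for MpMCM5. MpE2F, the factor that turns on S-phase genes in plants, rose by 1.13. The D-type cyclin MpCYCD_1 (Mp8g17230) had 49.8, 48.9 and 50.1 TPM in blue light, against 9.11, 10.7 and 10.6 TPM in darkness, a rise of 2.18.

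Histone genes did not all move in the same direction. Of the replication-type H3.1 genes, MpH3.1d rose by 2.23, MpH3.1a by 2.02, MpH3.1c by 1.72 and MpH3.1e by 1.27, while MpH3.1b was at −0.23 and not called. The replacement forms MpH3.3a (0.13) and MpH3.3b (−0.14) were not called. MpH2B.1 had 66.2, 67.9 and 63.6 TPM in blue light, against 169, 169 and 180.0 TPM in darkness. It fell by 1.38, MpH2B.2 fell by 1.17 and MpH2A fell by 1.11. Of 13 cell cycle regulators, MpCYCD_1, MpCYCA (1.30) and the inhibitor-type gene MpSMR (1.13) rose, and the mitotic cyclin MpCYCB_1 was at −0.04 and not called. MpCYCA was under the fold threshold with a pseudocount of 5 TPM. Histone copies are alike in sequence, so their values may share reads, and RNA without a poly(A) tail was not captured.

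In the plastid lists, single genes moved. MpSIG5 (Mp3g02240), a sigma factor that in Arabidopsis directs the plastid polymerase to a photosystem promoter in blue light, had 48.6, 57.2 and 55.9 TPM in blue light, against 7.25, 5.92 and 6.38 TPM in darkness. MpSIG2 averaged 169 ± 1.42 TPM in blue light and 367 ± 0.952 TPM in darkness (SD, n = 3 each). The first rose by 2.87 and the second fell by 1.11, while MpSIG1 (−0.62) and MpSIGX (−0.08) were not called. MpGUN5, the large subunit of magnesium chelatase in chlorophyll synthesis, had 429, 451 and 439 TPM in blue light, against 123, 142 and 156 TPM in darkness, a rise of 1.65. MpCHLD, a further subunit of that enzyme, was at 1.02 and just over the threshold, which it missed without replicate 3 of blue light (0.996) and with a pseudocount of 5 TPM (0.98). MpDXR1 of the plastid isoprenoid route rose by 1.14. The 4 tested genes for flavodiiron proteins and plastid terminal oxidases were not called; all 4 had an unadjusted limma p under 0.05 and were higher in blue light by less than the threshold.

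Some chaperone and antioxidant genes were higher in blue light. Of 6 genes in the heat shock list, 3 rose and 0 fell (limma; 5 and 1 at an unadjusted p under 0.05). MpHSP90-1 had 1034, 1067 and 1081 TPM in blue light, against 322, 350.3 and 361 TPM in darkness, a rise of 1.62. MpHSP90-4 (1.47) and MpHSP90-2 (1.40) rose with it, while MpHSP90-3 was at −0.36. Of 23 genes for reactive oxygen scavenging, 7 rose and 1 fell. MpGPX2, a glutathione peroxidase-class gene, had 108, 119.7 and 113 TPM in blue light, against 22.1, 23.9 and 27.2 TPM in darkness, a rise of 2.18. The superoxide dismutase MpSOD3 averaged 22.8 ± 0.694 TPM in blue light and 64.1 ± 3.97 TPM in darkness (SD, n = 3 each), a fall of 1.45. Of 71 pentatricopeptide repeat genes, whose products act on organelle RNA, 9 rose and 0 fell (limma; 41 and 12 at an unadjusted p under 0.05), with MpPPR_16 at 2.02. Called members made up 12.7% of the pentatricopeptide repeat genes, under the 17.7% of all tested genes. Most of all tested genes also had a limma p under 0.05 whatever the fold, as given above.

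Hormone genes moved in part. In the abscisic acid (ABA) list, 3 of 13 tested genes rose and 1 fell. MpABA1, a zeaxanthin epoxidase at the start of ABA synthesis, had 235, 243 and 225 TPM in blue light, against 55.05, 56.2 and 55.3 TPM in darkness, a rise of 2.06. MpCYP707A (Mp2g25940), whose Arabidopsis counterparts break ABA down, had 1.08, 1.22 and 1.73 TPM in blue light, against 10.1, 14.1 and 12.4 TPM in darkness, a fall of 2.49. The ABA receptor gene MpPYL1 rose by 1.20 and MpNCED, of the carotenoid cleavage step, by 1.30, which was under the fold threshold with a pseudocount of 5 TPM.

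Of 15 gibberellin-related genes, 0 rose and 5 fell, with a median of −0.76 (limma; 1 and 10 at an unadjusted p under 0.05). The receptor-like MpGID1L6 had 8.43, 8.75 and 8.64 TPM in blue light, against 40.2, 39.2 and 40.2 TPM in darkness, and MpGID1L8 had 32.02, 33.7 and 27.6 TPM in blue light, against 122, 116 and 116 TPM in darkness. These were clear falls, by 2.09 and 1.90, and MpKOL2, MpGID1L1 and MpKAOL1 fell by 1.35, 1.24 and 1.16. MpDELLA, the repressor of growth in gibberellin signalling of flowering plants, was at 0.67 and not called.

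Of 31 genes in the auxin list, 4 rose and 7 fell. The rises included MpHD9 (1.15), which came into the list by the match on symbols and synonyms. MpYUC2, of the auxin-synthesis enzyme family, had 36.5, 40.8 and 36.3 TPM in blue light, against 8.29, 7.46 and 8.42 TPM in darkness, a rise of 2.10. The auxin receptor MpTIR1 had 90.4, 100.4 and 101 TPM in blue light, against 296, 285 and 285 TPM in darkness, a fall of 1.56. MpTPL, the co-repressor, rose by 1.20, and the small auxin up RNA genes MpSAUR1 and MpSAUR13 fell by 1.88 and 1.84. In the cytokinin and ethylene list, 3 of 19 rose and 2 fell. MpRRA, the type-A response regulator of cytokinin signalling, had 141, 143 and 141 TPM in blue light, against 654, 615 and 642 TPM in darkness, a fall of 2.16. The cytokinin oxidases went in opposite directions, MpCKX2 at 1.84 and MpCKX1 at −1.88. In the jasmonate and lipoxygenase list, 0 of 18 rose and 3 fell by limma, among the falls MpLOX1 (−1.83) and MpLOX10 (−1.59). At an unadjusted limma p under 0.05, 2 were higher and 10 lower. Called members made up 16.7% of this list, close to the 17.7% of all tested genes.

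Among transcription factors, 0 of 13 WRKY genes rose and 4 fell, with a median of −0.66 (limma; 0 and 9 at an unadjusted p under 0.05). MpWRKY8 (Mp2g20960) had 9.88, 9.90 and 9.90 TPM in blue light, against 104, 88.2 and 100.3 TPM in darkness. MpWRKY9 had 10.6, 9.15 and 10.1 TPM in blue light, against 43.98, 43.1 and 42.3 TPM in darkness, and MpWRKY13 had 2.05, 1.85 and 1.58 TPM in blue light, against 13.5, 12.9 and 14.01 TPM in darkness. The falls were −3.17, −2.01 and −2.36; MpWRKY3, below 2.1 TPM in all 6 libraries, was the other (−1.20, and −0.38 with a pseudocount of 5 TPM). Of 21 ERF genes, 3 rose and 4 fell (33.3% called), from −4.18 (MpERF10) to 1.55 (MpERF4). Of 39 MYB genes, 2 rose and 1 fell (7.69% called, against 17.7% of all tested genes). MpR2R3-MYB5 had 94.6, 108 and 103 TPM in blue light, against 25.5, 28.2 and 25.7 TPM in darkness, a rise of 1.90, and MpR2R3-MYB9 fell by 1.43. The 9 tested NAC factors were not called by limma, and 3 were higher and 3 lower at an unadjusted p under 0.05.

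Late embryogenesis abundant (LEA) proteins are small hydrophilic proteins known from drying seeds and drought-stressed tissue. Of 64 tested LEA genes, 11 rose and 12 fell (35.9% called, against 17.7% of all tested genes). MpLEAL5 (Mp4g05760) had 23.5, 25.9 and 26.5 TPM in blue light, against 2.42, 2.17 and 1.69 TPM in darkness. MpLEA-like33 (Mp5g22700) had 7.34, 7.88 and 7.97 TPM in blue light, against 53.5, 53.8 and 58.8 TPM in darkness. These are the ends of the range, 3.09 and −2.69. MpLEA-like18 rose by 2.19 and MpLEA-like45 fell by 2.35.

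Of 69 tested ABC transporter genes, 17 rose and 5 fell. MpABCI7 had 57.4, 54.7 and 53.3 TPM in blue light, against 9.36, 9.25 and 10.02 TPM in darkness, a rise of 2.41, and MpABCC6 rose by 2.25. Of 30 glycosyltransferases of small molecules, 6 rose and 0 fell (limma; 17 and 5 at an unadjusted p under 0.05). MpUGT31 (Mp7g01270) had 134, 130.4 and 129.5 TPM in blue light, against 11.2, 11.7 and 11.01 TPM in darkness, and MpUGT9 averaged 299 ± 8.77 TPM in blue light and 59.05 ± 0.588 TPM in darkness (SD, n = 3 each), rises of 3.42 and 2.32. Of 27 dioxygenases of the DOXC class, 7 rose, led by MpDOXC2 at 159.9, 175 and 170.2 TPM in blue light, against 21.2, 17.3 and 18.1 TPM in darkness, and 5 fell, led by MpDOXC3 (−2.31). Of 85 cytochrome P450 genes, 14 rose and 9 fell. Called members made up 31.9% of the ABC transporters and 20% of the glycosyltransferases, against 17.7% of all tested genes. They made up 44.4% of the DOXC class and 27.1% of the cytochrome P450 genes.

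**Figure D3:**
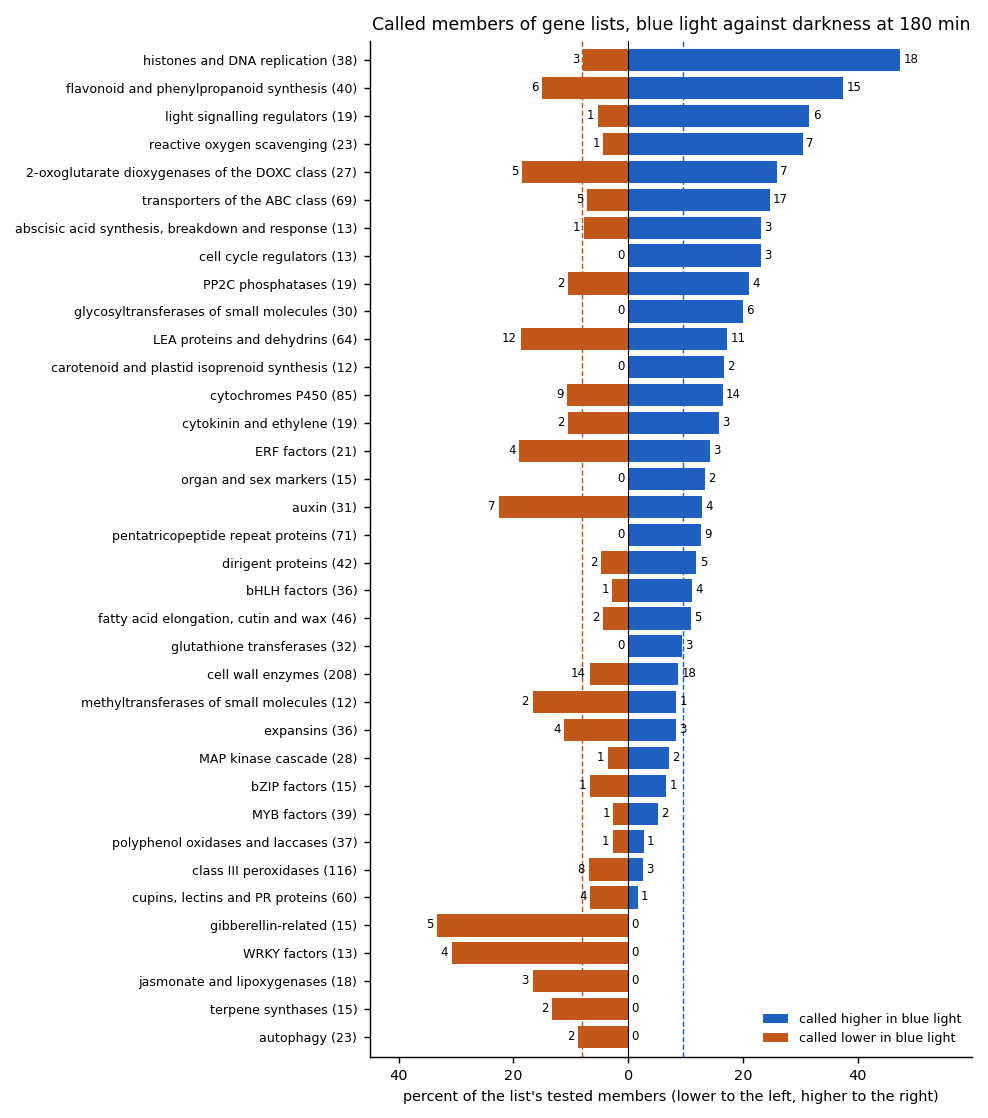
Percent of each list's tested members (number in brackets) called higher in blue light (blue, to the right) or lower (orange, to the left) at 180 min against darkness, with the counts at the bar ends, for lists of 10 or more tested genes; dashed lines mark the 9.64% and 8.09% of all tested genes. Histones and DNA replication (18 higher of 38) and flavonoid synthesis (15 of 40) stand at the top, and gibberellin-related genes and WRKY factors have bars to the left only.

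The genes of highest level that were called in blue light were Mp3g03990, Mp7g06790, Mp2g15250 and Mp6g07320, which have no symbol in the name table, and MpTIP1. Mp3g03990 had 2635, 2694 and 2640.1 TPM in blue light, against 526, 526 and 558 TPM in darkness. Mp7g06790 averaged 2624 ± 61.3 TPM in blue light and 905 ± 45.1 TPM in darkness. Each of these 2 rose, by 2.31 and 1.54. MpTIP1 (Mp1g20890), a tonoplast aquaporin, fell by 1.17 and was among the 5 highest in both groups, at 3118, 3141 and 3039 TPM in blue light, against 7259, 6610.1 and 7068 TPM in darkness. Mp5g19710 had 327, 340.3 and 352 TPM in blue light, against 6670.3, 6726 and 6571 TPM in darkness. It was second to MpTIP1 among the called genes in darkness and fell by 4.29 ± 0.048 (SE). Mp6g07320 (1.01) was under the threshold with TMM scaling (0.997) and without replicate 3 of darkness (0.98).

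Chosen after their values were seen, the largest changes of all, named or not, were a rise of Mp6g14520 and a fall of Mp2g04800. Mp6g14520 had 288, 308 and 286 TPM in blue light, against 2.87, 1.81 and 2.04 TPM in darkness, and Mp2g04800 had 1.68, 1.29 and 1.18 TPM in blue light, against 81.5, 80.4 and 77.5 TPM in darkness. The fold changes were 6.52 ± 0.17 and −5.09 ± 0.12 (SE; limma adjusted p = 4.59e-42 and 4.09e-44). No role is given to these identifiers.

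Darkness itself moved little between time zero and 180 min. Only 27 genes were called between them (0.207% of those tested), 15 higher (0.115%) and 12 lower (0.0919%) at 180 min, by the same limma test. MpERF10 was at 191, 196 and 208 TPM after 180 min of darkness, against 119.7, 123 and 116 TPM at time zero. MpDOXC2 was at 21.2, 17.3 and 18.1 TPM after 180 min of darkness, against 35.6, 31.6 and 30.8 TPM at time zero. MpPKS/CHS2 was at 43.5, 48.6 and 44.9 TPM after 180 min of darkness, against 45.1, 47.4 and 40.5 TPM at time zero, so the 3 genes differed in how far the dark level had moved.

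Blue light was next set against red light at the same time, a direct contrast whose fold changes use no dark library; all 26 groups share the estimate of spread behind its p-values. Only 135 genes were called (1.03%): 102 were higher in blue light (0.781%) and 33 were lower (0.253%). MpPPR_16 had 59.8, 65.1 and 58.00 TPM in blue light, against 14.1, 12.2 and 15.4 TPM in red light. MpCRY-DASH had 40.3, 42.1 and 42.5 TPM in blue light, against 11.6, 9.21 and 8.98 TPM in red light. In both genes the mean in red light was within 1 TPM of the mean in darkness. The blue-over-red log2 differences were 2.06 and 1.97, followed by MpCER1 (1.93), MpRUP (1.89) and MpPKS/CHS2 (1.83). MpPKS/CHS2 had 872, 867 and 878 TPM in blue light, against 245, 252 and 239.8 TPM in red light.

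Lower in blue than in red light were MpBBX6 (−1.91), the glycoside hydrolase MpGH31.8 (−1.50), MpCYP707A (−1.44), MpPKS/CHS15 (−1.28) and MpUGT32 (−1.27). MpBBX6 had 8.20, 7.08 and 7.72 TPM in blue light, against 30.3, 31.3 and 33.02 TPM in red light. MpPKS/CHS15 had 181, 189 and 190.3 TPM in blue light, against 477, 435 and 456 TPM in red light. The 2 chalcone synthase-family genes MpPKS/CHS2 and MpPKS/CHS15 thus differed between the lights in opposite directions. The lights also differed in intensity, 30 to 40 µmol m−2 s−1 for blue and 80 to 90 for red, and the part of wavelength and of intensity cannot be told apart. MpCYP707A was under the fold threshold with a pseudocount of 5 TPM (−0.70).

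Blue against white light differed in 77 genes (0.59%): 43 were higher (0.329%) and 34 lower (0.26%) in blue light. MpLEAL7 had 21.2, 26.9 and 26.97 TPM in blue light, against 6.01, 4.63 and 4.50 TPM in white light. MpBZIP1 had 142, 132 and 132 TPM in blue light, against 41.99, 45.7 and 48.4 TPM in white light. The differences were 2.11 and 1.55, followed by MpPKS/CHS2 (1.52), MpLEA-like61 (1.43) and MpF3H (1.39). MpCYP704-like5 (−1.70), MpLOX14 (−1.63), MpKFB01_20 (−1.57), MpBBX6 (−1.54) and MpCYP707A (−1.24) were lower in blue than in white light. MpLOX14 had 113, 115 and 118 TPM in blue light, against 368, 355 and 357 TPM in white light. MpCYP707A lost its call without replicate 2 of the groups (−1.11) and with a pseudocount of 5 TPM (−0.59).

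**Figure D4:**
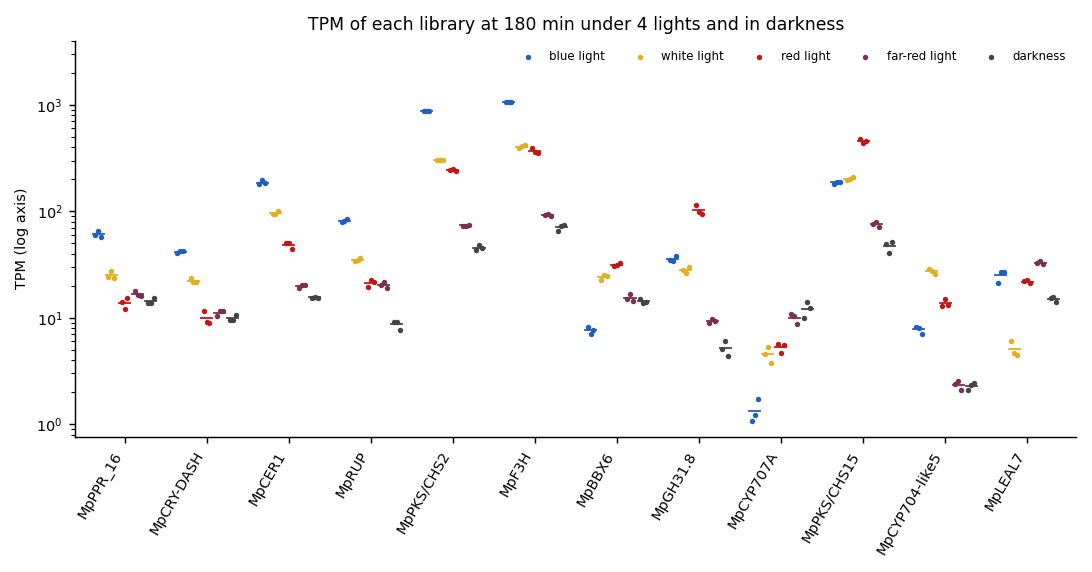
TPM in each library at 180 min of blue, white, red and far-red light and of darkness, in this order from left to right for each gene, on a log axis; points are libraries and bars are means of 3. MpCRY-DASH and MpPPR_16 are higher in blue light than in the 4 other groups, MpBBX6 is lowest in blue light, and MpPKS/CHS15 is highest in red light.

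The blue and dark groups of the other times share no library with those at 180 min. After 30 min of blue light 668 genes were called (5.12%), 588 higher (4.5%) and 80 lower (0.613%). After 60 min it was 1393 genes (10.7%), 1118 higher (8.56%) and 275 lower (2.11%). The count was 2564 at 12 h (19.6%), with 1410 higher (10.8%) and 1154 lower (8.84%), and 3085 at 24 h (23.6%), with 1768 higher (13.5%) and 1317 lower (10.1%). The median fold change of all tested genes was 0.17 at 30 min and 0.18 at 60 min. It was 0.02 at 180 min, 0.05 at 12 h and 0.03 at 24 h. No other scaling was tried on the counts at 30 min, 60 min, 12 h and 24 h, so their balance of higher and lower may depend on it. Of the 1258 genes higher at 180 min, 551 were also higher at 60 min, which is 43.8% of the first list and 49.3% of the second. Of the 1056 lower at 180 min, 215 were also lower at 60 min (20.4% of the first list and 78.2% of the second) and 695 at 12 h (65.8% and 60.2%). With 12 h, 687 higher genes were shared (54.6% and 48.7%). No other time had a call for 231 of the higher and 238 of the lower genes.

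The gene lists had their calls at different times. Of all tested genes, 4.5%, 8.56%, 9.64%, 10.8% and 13.5% were called higher at 30 min, 60 min, 180 min, 12 h and 24 h. Called lower at these times were 0.613%, 2.11%, 8.09%, 8.84% and 10.1%. Of the 38 histone and replication genes, 0 were higher at 30 min, 4 at 60 min, 18 at 180 min, 22 at 12 h and 23 at 24 h. At these times 0, 1, 3, 0 and 1 were lower. Flavonoid genes had calls from the start: of 40, 11 were higher at 30 min, 17 at 60 min, 15 at 180 min, 9 at 12 h and 7 at 24 h. Lower calls among them numbered 0, 1, 6, 5 and 6 at these times. Of the 19 light signalling regulators, 5, 8, 6, 1 and 1 were higher and 0, 0, 1, 2 and 1 were lower at the same times. Calls of WRKY factors lay on the higher side early and on the lower side later. Of 13, 4 were higher and 0 lower at 30 min, and 3 higher and 0 lower at 60 min. At 180 min 0 were higher and 4 lower, at 12 h 0 and 5, and at 24 h 0 and 4. Of 64 LEA genes, 1 was higher and 0 lower at 30 min, and 15 were higher and 1 lower at 60 min. At 180 min 11 were higher and 12 lower, at 12 h 4 and 26, and at 24 h 1 and 39. Differences between times were tested only gene by gene, and only between 180 and 60 min. The median of all tested genes was itself higher at 30 and 60 min than later, and list counts at those times were not repeated with another scaling.

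The response at 180 min (blue light minus darkness) was set against the response at 60 min in 1 contrast of the fit. It differed in 1316 genes (10.1%), with 324 higher (2.48%) and 992 lower (7.6%) at 180 min. The median of all tested genes was itself −0.17 in this contrast, and with TMM scaling, which brought the median to −0.0001, the calls were 536 higher and 610 lower. With a common median they were 598 higher and 547 lower, so the balance of this contrast depends on the scaling. Without replicate 3 of darkness at 60 min, which correlated less well with its group, the calls were 349 higher and 1212 lower. MpDOXC2 was at 3.10 at 180 min and 0.35 at 60 min, a difference of 2.75. MpCER1 was at 3.50 at 180 min and 0.86 at 60 min. MpCHIL2 (difference 2.00) and the aldolase gene MpFBA4 (1.90) were at 0.85 and 0.25 at 60 min, so these 4 genes were under the fold threshold then. MpELO2 was at 4.54 at 180 min and was already called at 60 min, at 2.10, a difference of 2.44.

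Among the 5 named genes with the largest negative difference, MpBBX2 had passed its peak. It had 9.84, 11.4 and 9.95 TPM after 180 min of blue light, against 85.4, 85.6 and 92.2 TPM after 60 min, and its response differed by −3.40. MpCYP707A was lower in blue light at 180 min and higher at 60 min, with 25.95, 26.7 and 23.4 TPM against 9.96, 6.77 and 10.4 TPM in darkness at 60 min, a difference of −3.90. MpLOX1 (difference −3.15) and MpWRKY3 (−3.05) were likewise called higher at 60 min and lower at 180 min. MpWRKY8 (difference −2.71) was at −0.46 at 60 min, under the fold threshold. Such reversals were rare: 7 genes lower at 180 min were called higher at 60 min, and 2 genes higher at 180 min were called lower at 60 min.

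**Figure D5:**
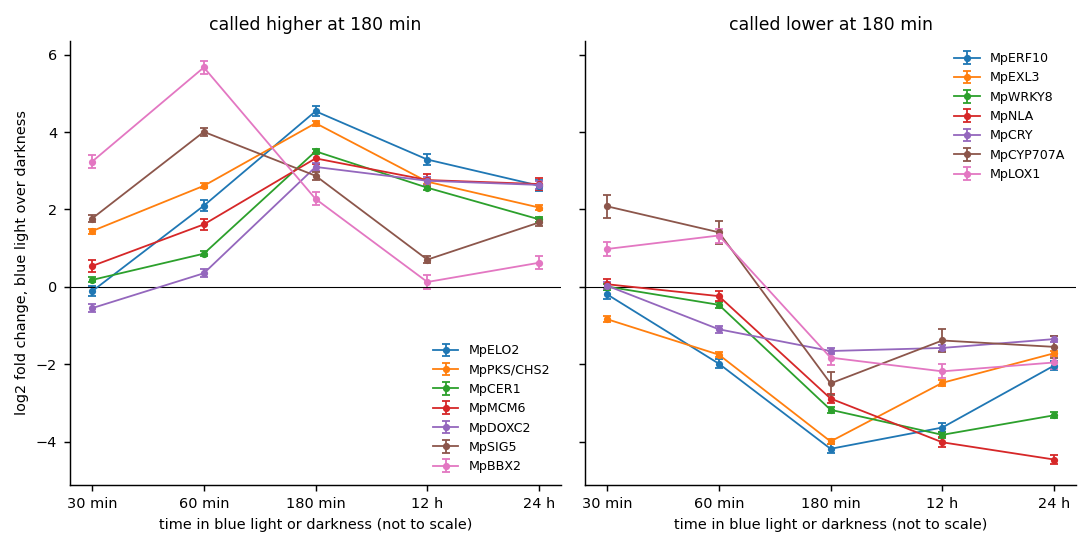
Log2 fold change of blue light over darkness at 30 min, 60 min, 180 min, 12 h and 24 h (horizontal axis, not to scale) for 7 genes called higher and 7 called lower at 180 min; bars are SE from the fit, 3 libraries per group and time. MpBBX2 and MpSIG5 peak at 60 min, MpELO2, MpPKS/CHS2 and MpCER1 peak at 180 min, and MpCYP707A and MpLOX1 lie above 0 at 60 min and below 0 at 180 min.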

How the data were processed

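Poly(A) RNA of 78 libraries was sequenced as read pairs of 150 bases, per the labels' protocols. The authors deposited TPM per gene and library, and each column was checked to sum to 1000000. STAR, a read aligner, is listed without a version in the submitters' processing notes. Which build, annotation and counting were used is not given in the sources used here. TPM keeps no depth, so no counting interval is given. Genes were named by matching the number of each identifier to locus tags of assembly MpTak2_v7.1: 17384 of 19355 identifiers matched and 3091 had a symbol.

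The filter kept 13054 genes that reached 1 TPM in 3 or more of the 78 libraries, and log2(TPM + 1) was fitted in limma 3.58.1 (R 4.3.3) with 1 mean per group over all 26 groups, an intensity trend and no replicate block. Errors are SD over 3 libraries or SE from the fit. The script was tested on simulated data. Alternatives were other pseudocounts, filters and scalings, only the libraries compared, no trend, a replicate block, and leaving out replicates.

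The 46 gene lists were taken by symbol or synonym. The members and lists were chosen with earlier results of these data known. Genes are named by a rule: the 15 largest rises and falls with a symbol, up to 3 in each direction of each list, all photoreceptors and light signalling regulators, the 5 largest in each direction of the other contrasts, and the 5 called genes of highest TPM in each group; 202 genes met it, and the text gives those that describe each list. The 15 largest rises and falls were taken only from called genes whose blue-light and dark values do not overlap. Promoter motifs were not analysed here.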

Additional observations from a re-analysis of the deposited data

Results flagged for a closer look

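Each of the following was singled out because the difference between 2 lights or 2 times itself passed limma's test, not because a gene was called in 1 group alone. Blue and red light at 180 min differed in 135 genes. Higher in blue light were MpPPR_16 (2.06), MpCRY-DASH (1.97), MpCER1 (1.93), MpRUP (1.89) and MpPKS/CHS2 (1.83), and lower were MpBBX6 (−1.91), MpGH31.8 (−1.50), MpCYP707A (−1.44), MpPKS/CHS15 (−1.28) and MpUGT32 (−1.27), as log2 differences of blue minus red. For 9 of these 10 genes the call held under every alternative tried; MpCYP707A lost it with a pseudocount of 5 TPM.

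Blue and white light at 180 min differed in 77 genes. Higher in blue light were MpLEAL7 (2.11), MpBZIP1 (1.55), MpPKS/CHS2 (1.52), MpLEA-like61 (1.43) and MpF3H (1.39), and lower were MpCYP704-like5 (−1.70), MpLOX14 (−1.63), MpKFB01_20 (−1.57), MpBBX6 (−1.54) and MpCYP707A (−1.24), as log2 differences of blue minus white.

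The response to blue light differed between 180 min and 60 min in 1316 genes. It was higher at 180 min for MpDOXC2 (2.75), MpCER1 (2.64), MpELO2 (2.44), MpCHIL2 (2.00) and MpFBA4 (1.90), and lower for MpCYP707A (−3.90), MpBBX2 (−3.40), MpLOX1 (−3.15), MpWRKY3 (−3.05) and MpWRKY8 (−2.71), as differences of log2 fold changes.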

How the results depend on the processing

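The count of genes called between blue light and darkness was 2314 and ranged from 1631 (pseudocount 5 TPM) to 2948 (0.1 TPM); leaving out replicates gave 2289 to 2356. Blue against red light gave 250 genes with a pseudocount of 0.1 TPM and 82 with 5 TPM (131 to 145 without a replicate). Blue against white light gave 159 and 40 (76 to 91). The response at 180 min minus that at 60 min gave 1875 with 0.1 TPM, 785 with 5 TPM and 1290 to 1598 without a replicate; 1561 without replicate 3 of darkness at 60 min was added after seeing the data. The share of rises in that contrast was 24.6%, against 46.8% with TMM and 52.2% with a common median, where rises outnumbered falls. No called fold change of a named gene changed sign under these alternatives. Of the 202 named genes, 29 lost the call against darkness under at least 1 alternative and 1 gained it; 15 of 46 list counts moved by over 1.5 times in at least 1 setting. With a common median, the medians of 6 lists, all within 0.04 of 0, changed sign. Same-numbered blue and dark libraries did not deviate together (r of 0.030, −0.033 and −0.051), and no pairing was used. Whether the numbers mark shared handling was not tested. With a replicate block the counts were 2314, 135, 77 and 1316 in all libraries, and 2317, 139, 88 and 1327 in the libraries compared. With equal groups a block leaves fold changes as they were, so it could move these counts only through the p-values. Depth is unknown, so the limit for genes near 0 TPM cannot be stated.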

Other observations

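Of 116 tested class III peroxidases, 3 were higher in blue light and 8 lower, and MpPOD23 had 10.5, 13.1 and 11.8 TPM in blue light, against 80.3, 81.2 and 85.1 TPM in darkness. Of 208 cell wall enzymes, 18 were higher and 14 lower; MpGH31.8 had 34.9, 33.99 and 37.7 TPM in blue light, against 5.08, 6.04 and 4.34 TPM in darkness, and MpGT8.8 had 20.4, 19.1 and 20.3 TPM in blue light, against 75.9, 83.5 and 79.1 TPM in darkness. Of 36 expansins, 3 were higher and 4 lower, with MpExpansin15 at 1.58 and MpEXL2 at −1.54. Of 42 dirigent genes, 5 were higher and 2 lower. Of 37 polyphenol oxidases and laccases, 1 was higher, MpPPO20, at 219, 228 and 222 TPM in blue light, against 45.9, 49.2 and 48.8 TPM in darkness, and 1 was lower. Called members made up 15.4% of the cell wall enzymes, 9.48% of the peroxidases, 16.7% of the dirigent genes and 5.41% of the polyphenol oxidases and laccases. These shares were under the 17.7% of all tested genes, and that of the expansins (19.4%) was close to it.

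Of 23 autophagy genes, 0 were higher and 2 lower (limma; 5 and 13 at an unadjusted p under 0.05). MpATG8b, named for the ubiquitin-like protein that coats autophagosomes, had 56.6, 58.1 and 60.8 TPM in blue light, against 183, 182 and 186 TPM in darkness, and MpATG6 averaged 27.7 ± 0.852 TPM in blue light and 65.1 ± 2.98 TPM in darkness (SD, n = 3 each). Of 15 terpene synthases, 0 were higher and 2 lower (limma; 5 and 4 at an unadjusted p under 0.05), MpTPS5 (−2.20) and MpTPS3 (−1.83). Of 32 glutathione transferases, 3 were higher and 0 lower (limma; 15 and 10 at an unadjusted p under 0.05), with MpGST17 at 1.60. Called members made up 8.7% of the autophagy genes, 13.3% of the terpene synthases and 9.38% of the glutathione transferases. These shares were under the 17.7% of all tested genes. Of 19 PP2C phosphatases, 4 were higher and 2 lower. MpPP2C_PPH1 had 69.6, 72.7 and 65.3 TPM in blue light, against 17.6, 17.9 and 16.6 TPM in darkness. Among the organ markers, MpRKD, a germline and gemma-cup regulator, rose by 1.20 and MpC1HDZ, an oil-body regulator, by 1.06, the last being under the fold threshold without replicate 3 of darkness (0.98).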
